A study of Panonychus citri with 4 samples.

Results

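The miRNA families miR-12, miR-190 and miR-281, each known from many arthropods, were followed through 4 small RNA libraries of the citrus red mite (Panonychus citri), a plant-feeding spider mite. They were chosen by their reads in the adult and embryo libraries, all 3 being higher in the adult, so the adult against embryo values below describe the choice and are no test of it. Every listed name of these families was taken, with or without a letter or an arm suffix. This gave 13 names of 594, in 23 of the 1151 rows over the 4 libraries (embryo 4, larva 6, nymph 8, adult 5). By family there were 4 names of miR-12, 5 of miR-190 and 4 of miR-281.

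Each stage was 1 library of whole bodies pooled from over 3000 embryos, 2500 larvae, 1500 nymphs or 1000 adults, with protonymphs and deutonymphs mixed in the nymph pool. No treatment, strain or sex of the animals is given in the sources used here. Stages were not replicated, so nothing here tests the stages themselves. All 95% intervals below reflect read counting alone and hold no variation between animals or libraries. PCR copies of a molecule are counted as separate reads, so the intervals may be too narrow even for counting error. Levels per 1000000 of the reads listed under known miRNA names are called listed RPM, and levels per 1000000 of the library total are called library RPM. Listed reads came to 248256, 1012278, 1258698 and 438409 from embryo to adult, which was between 4.17% and 21.2% of library totals of 5918115 to 5957910 reads. Both scales are given because the listed share differed this much between libraries. In whole animals, fewer cells of a type and less of a miRNA per cell cannot be told apart.

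A miRNA is cut from a hairpin precursor by Drosha and Dicer, and 1 strand, the 5p or the 3p arm, is kept in an Argonaute protein. Pairing between the seed of that strand, its bases 2 to 8, and a messenger RNA is the main guide to its targets. In Drosophila, miR-12 is made from a cluster that also holds miR-283 and miR-304, and in the mosquito Aedes aegypti miR-12 has been tied to the density of Wolbachia bacteria. The miR-190 gene lies in an intron of talin in Drosophila, where miR-190 represses the prolyl hydroxylase Fatiga and so raises the response to low oxygen. In the silkworm, miR-281 represses an isoform of the ecdysone receptor in the Malpighian tubules, and in the mosquito Aedes albopictus it is a midgut miRNA. No such role has been measured in the libraries described here, and whether the mite sequences match those of other species was not tested.

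The sequences that carry nearly all reads of the 3 families are shown first, 5′ to 3′ as deposited in DNA letters, with the seed in capitals. Each family was led by its 5p arm, listed in 2 lengths that share the 5′ end and so the seed.
miR-12: tGAGTATTacatcaggtactg
miR-12-5p: tGAGTATTacatcaggtactgg
miR-190: aGATATGTttgatattcttg
miR-190-5p: aGATATGTttgatattcttggtt
miR-281a-5p: aAGAGAGCttatccgtagaca
miR-281-5p: aAGAGAGCttatccgtagacagt
The seeds differ between the families, and 0 listed names of any other number carried one of them. The miR-190 sequences had the lowest share of G and C, 25.0% and 26.1%, against 38.1% and 40.9% for miR-12 and 42.9% and 43.5% for miR-281. Names of the same number were summed into a sequence group where at least 17 bases of overlap held no mismatch, which gave 366 groups in all and 8 for the 3 families. The 3 leading groups are called the miR-12, miR-190 and miR-281 groups below.

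Which length was listed changed from library to library. For miR-12, the variant of 22 nucleotides (miR-12-5p) had 116 larva and 32 embryo reads and no row in the nymph or adult. The variant of 21 nucleotides (miR-12) had 17, 69, 778 and 250 reads from embryo to adult. The shorter variant thus took 37.3% (interval 30.3 to 44.7) of the group in the larva and 34.7% (21.7 to 49.6) in the embryo, and stood alone afterwards. For miR-190, the adult and embryo listed the variant of 20 nucleotides (miR-190), with 600 and 77 reads, while the nymph and larva listed that of 23 (miR-190-5p), with 1058 and 761 reads. For miR-281, the larva listed 580 reads of the variant of 21 nucleotides (miR-281a-5p), and the embryo, nymph and adult listed 24, 1002 and 1008 reads of that of 23 (miR-281-5p). In miR-190 and miR-281, therefore, 0 variants were listed in all 4 libraries.

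The sources used here do not say if the count of a name includes other read lengths, and a missing row does not show that a variant was absent. A change of listed variant was common among all sequence groups, those described here included. Of 42 sequence groups with at least 2 names and at least 10 reads in each library, 19 (45.2%) changed their leading name between libraries, and 13 (30.95%) had no name listed in all 4. The miR-12, miR-190 and miR-281 groups are among the 19, and the miR-190 and miR-281 groups among the 13. The pattern of miR-190, with 1 variant leading in the embryo and adult and another in the larva and nymph, was found in 3 of the 42, and the larva alone stood apart in 1, which was miR-281. This set was defined after the values were seen. Values below are sums over the variants unless a single variant is named.

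**Figure D1:**
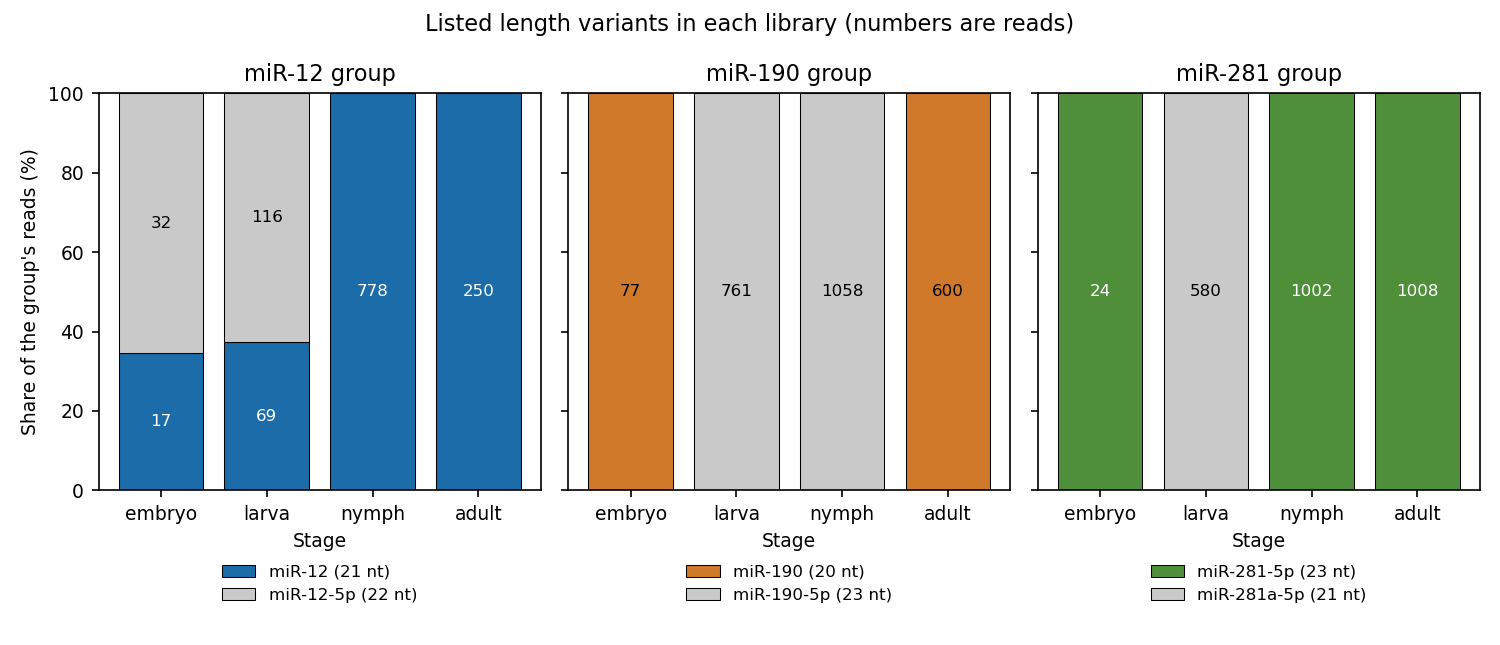
Share of each group's reads (%, vertical axis) held by its listed length variants in the embryo, larva, nymph and adult libraries, with the reads written in the bars. The miR-12 group holds both variants in the embryo and larva, whereas miR-190 and miR-281 hold a single variant in each library.

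The miR-12 group had 49, 185, 778 and 250 reads from embryo to adult. On the listed scale this was 197.4 RPM (interval 146.0 to 260.9), 182.8 RPM (157.4 to 211.1), 618.1 RPM (575.4 to 663.1) and 570.2 RPM (501.7 to 645.5). The libraries formed a low pair, embryo and larva, and a high pair, nymph and adult. Within each pair the ratio did not differ beyond counting error: 0.926 (0.673 to 1.30) for larva over embryo and 0.923 (0.797 to 1.07) for adult over nymph. On the library scale the levels were 8.22, 31.1, 130.9 and 42.2 RPM, with intervals of 6.08 to 10.9, 26.8 to 36.0, 121.8 to 140.4 and 37.2 to 47.8. All 4 then differed beyond counting error, in the order embryo, larva, adult, nymph. Among sequence groups with a row, miR-12 ranked 43 of 212 in the embryo, 38 of 225 in the larva, 33 of 290 in the nymph and 31 of 224 in the adult by level.

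The miR-190 group had 77, 761, 1058 and 600 reads from embryo to adult. Its listed level was 310.2 RPM (244.8 to 387.7) in the embryo, 751.8 (699.3 to 807.1) in the larva, 840.6 (790.7 to 892.8) in the nymph and 1369 (1261 to 1483) in the adult. It stood lowest in the embryo and highest in the adult, and the step between the neighbours nymph and larva was small, 1.12-fold (1.02 to 1.23), and below 1 under 2 other scalings. Its library level was 12.9 RPM (10.2 to 16.2), 128.1 (119.2 to 137.5), 178.0 (167.4 to 189.0) and 101.4 (93.4 to 109.8). The order on that scale was embryo, adult, larva, nymph, so the adult had the highest listed level but only the third highest library level. It ranked 33 of 212 groups in the embryo, 25 of 225 in the larva, 27 of 290 in the nymph and 22 of 224 in the adult.

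The miR-281 group had the widest range of the 3, with 24 reads in the embryo and 580, 1002 and 1008 in the larva, nymph and adult. Its listed level was 96.7 RPM (61.9 to 143.8) in the embryo, 573.0 (527.3 to 621.6) in the larva, 796.1 (747.5 to 846.9) in the nymph and 2299 (2159 to 2446) in the adult. Each stage was higher than the one before beyond counting error. On the library scale, 4.03 RPM (2.58 to 5.99), 97.6 (89.8 to 105.9), 168.6 (158.3 to 179.3) and 170.3 (160.0 to 181.2), the nymph and adult did not differ beyond counting error. In rank by level miR-281 stood at 60 of 212 groups in the embryo, 27 of 225 in the larva, 28 of 290 in the nymph and 16 of 224 in the adult. Together the 3 groups held 0.0604%, 0.151%, 0.226% and 0.424% of the listed reads from embryo to adult. On the library scale their sum was 25.2, 256.9, 477.4 and 314.0 RPM, so it was highest in the adult on the listed scale and in the nymph on the library scale.

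**Figure D2:**
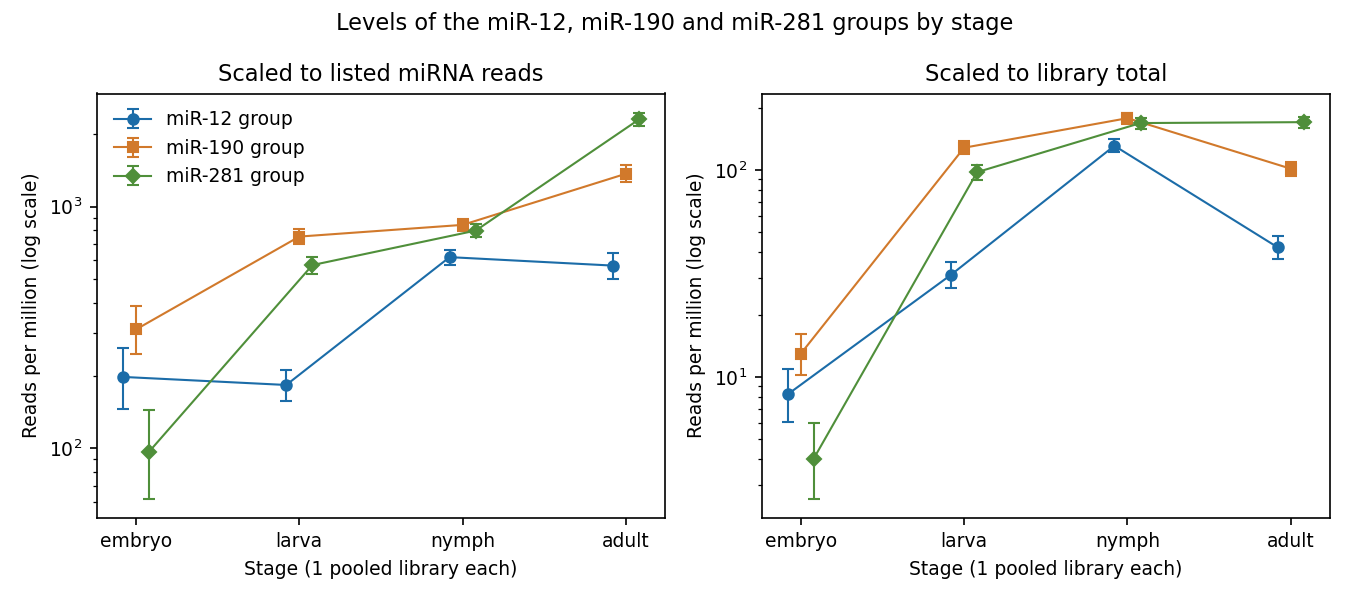
Level of each group (RPM, log axis) in the embryo, larva, nymph and adult libraries, scaled to the listed miRNA reads on the left and to the library total on the right. Points are single libraries with 95% intervals for counting error, and lines only join points of the same group. On the left miR-190 and miR-281 are highest in the adult at 1369 and 2299 RPM, and on the right miR-12 and miR-190 are highest in the nymph at 130.9 and 178.0 RPM.

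In each comparison, groups whose reads in the 2 libraries summed to 30 or more were tested, and a group was called when the whole interval of its ratio lay above 2-fold or below the inverse. Neighbouring comparisons share a library, so their ratios are not independent, and the 3 steps multiply to the adult over embryo ratio that chose the families. The rank of a ratio among all tested groups does not depend on the scaling and is given beside it.

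Larva against embryo asks what differed after hatching. miR-281 was 5.93-fold higher in the larva (3.94 to 9.33) and ranked 8 of the 76 tested groups. miR-190 had a ratio of 2.42 (1.92 to 3.11), just short of the call, and ranked 19, and miR-12 had 0.926 and ranked 31. So 1 of the 3 was called higher on the listed scale, where 21.1% of all tested groups were called higher, and the median log2 ratio of all tested groups was -1.02. With the library totals the ratios were 24.2 (16.1 to 38.1) for miR-281, 9.91 (7.83 to 12.7) for miR-190 and 3.79 (2.75 to 5.30) for miR-12. All 3 were then called higher, against 44.7% of all groups, and the median log2 ratio of all groups was 1.01. For miR-12 both listed variants gave ratios near 1 on the listed scale, 0.995 (0.579 to 1.81) for the shorter and 0.889 (0.597 to 1.36) for the longer. For the other families no variant was listed in both libraries.

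Nymph against larva uses neither library of the choice, and here miR-12 was the furthest from 1 on both scales. miR-12 was 3.38-fold higher in the nymph (2.88 to 3.99) and ranked 9 of 86, and with the library totals 4.20-fold higher (3.58 to 4.96). The 21-nucleotide variant alone, with 778 nymph and 69 larva reads, was 9.07-fold higher (7.08 to 11.8), since the longer variant had no nymph row. miR-281 had a ratio of 1.39 (1.25 to 1.54), ranking 40, and miR-190 1.12, ranking 57. The miR-190 ratio compares the same sequence of 23 nucleotides in both libraries, whereas that of miR-281 sets 23 nucleotides in the nymph against 21 in the larva. Thus 1 of 3 was called higher, against 12.8% of all tested groups, and also with the library totals, against 19.8%. The median log2 ratio of all groups was 0.38 on the listed and 0.69 on the library scale.

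In adult against nymph miR-281 was the furthest from 1 on the listed scale and miR-12 on the library scale. miR-281 was 2.89-fold higher in the adult (2.64 to 3.16), from the same 23-nucleotide sequence in both libraries, and ranked 7 of 86. miR-190 had 1.63 (1.47 to 1.80), ranking 34, and miR-12 had 0.923, ranking 53. The miR-12 ratio again compares 1 sequence, whereas that of miR-190 sets 20 nucleotides in the adult against 23 in the nymph. On the listed scale 1 of 3 was called higher, against 10.5% of all groups. With the library totals miR-281 stood at 1.01 (0.925 to 1.10), miR-190 at 0.570 (0.515 to 0.630) and miR-12 at 0.323 (0.279 to 0.373). Only miR-12 was then called, as lower, against 45.3% of all groups called lower. The median log2 ratio of all groups was 0.33 on the listed and -1.18 on the library scale, so all 3 signs on the library scale are read against a general shift downward. Among the 54 tested groups of families conserved in arthropods, a list described below, the medians were -0.30 and -1.81.

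Adult against embryo is the comparison that chose the families and is given as description. The listed ratios were 23.8 (15.9 to 37.3) for miR-281, 4.41 (3.48 to 5.67) for miR-190 and 2.89 (2.12 to 4.01) for miR-12, ranking 4, 15 and 17 of 72. With the library totals they were 42.3 (28.3 to 66.3), 7.85 (6.18 to 10.1) and 5.14 (3.77 to 7.13). All 3 passed the call on both scales, where 27.8% and 29.2% of all tested groups were called higher. For miR-190 and miR-281 the embryo and adult listed the same sequence, so these ratios do not rest on a change of variant, whereas the miR-12 ratio was 8.33 (5.10 to 14.5) for its 21-nucleotide variant alone. On the listed scale the 3 steps for miR-12 were 0.926, 3.38 and 0.923 from embryo to adult, and those for miR-281 were 5.93, 1.39 and 2.89.

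**Figure D3:**
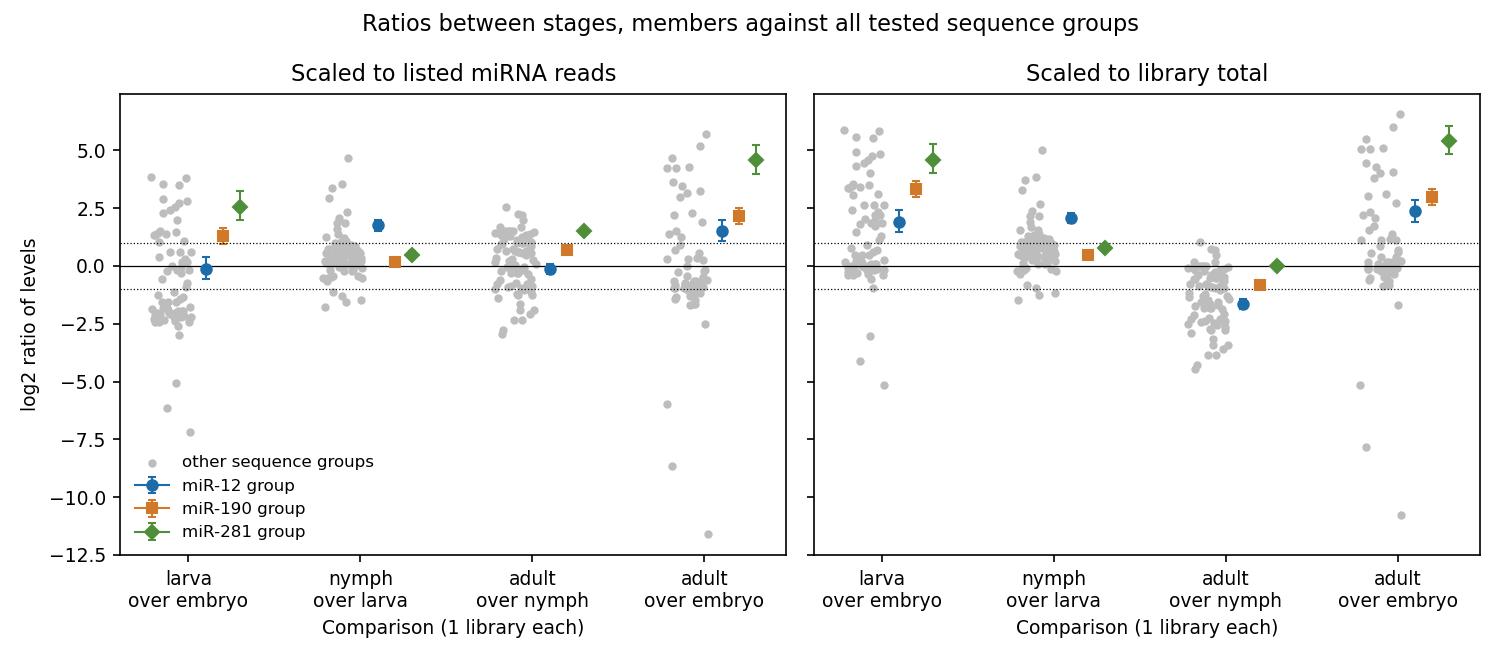
Log2 ratios of levels between stages for the miR-12, miR-190 and miR-281 groups (coloured, with 95% intervals for counting error) and for all other tested sequence groups (grey points, 1 each), on the listed scale at left and the library scale at right. Dotted lines mark 2-fold, and a group with no row in a library is set to 3 reads there. miR-281 ranks 8, 40, 7 and 4 from left to right, and miR-12 ranks 31, 9, 53 and 17.

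The balance among the 3 groups within a library does not depend on how libraries are scaled. miR-281 took 16.0% of their summed reads in the embryo (10.5 to 22.9), 38.0% in the larva (35.6 to 40.5), 35.3% in the nymph (33.6 to 37.1) and 54.3% in the adult (52.0 to 56.5). miR-190 took 51.3% (43.1 to 59.6), 49.9% (47.3 to 52.4), 37.3% (35.5 to 39.1) and 32.3% (30.2 to 34.5). miR-12 took 32.7% (25.2 to 40.8), 12.1% (10.5 to 13.9), 27.4% (25.8 to 29.1) and 13.5% (11.9 to 15.1). So the leading member was miR-190 in the embryo and larva and miR-281 in the adult, while in the nymph the 2 were level at 0.947 miR-281 reads per miR-190 read (0.868 to 1.03).

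The reads of miR-281 per read of miR-190 came to 0.312, 0.762, 0.947 and 1.68 from embryo to adult, higher at each stage. This ratio was 2.45-fold higher in the larva than in the embryo (1.51 to 4.10) and 1.77-fold higher in the adult than in the nymph (1.55 to 2.03). It was 5.39-fold higher in the adult than in the embryo (3.33 to 9.01), a description only, as those reads chose the families. Against miR-12 the course was not a steady one. There were 0.490, 3.14, 1.29 and 4.03 miR-281 reads per miR-12 read, and 1.57, 4.11, 1.36 and 2.40 miR-190 reads per miR-12 read. Both ratios were higher in the larva than in the embryo, lower in the nymph than in the larva, and higher in the adult than in the nymph, each beyond counting error. The nymph over larva change was 0.411-fold (0.338 to 0.499) for miR-281 against miR-12 and 0.331-fold (0.273 to 0.399) for miR-190 against miR-12. These values set listed reads of different sequences side by side, and how well each sequence is ligated and amplified was not measured.

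**Figure D4:**
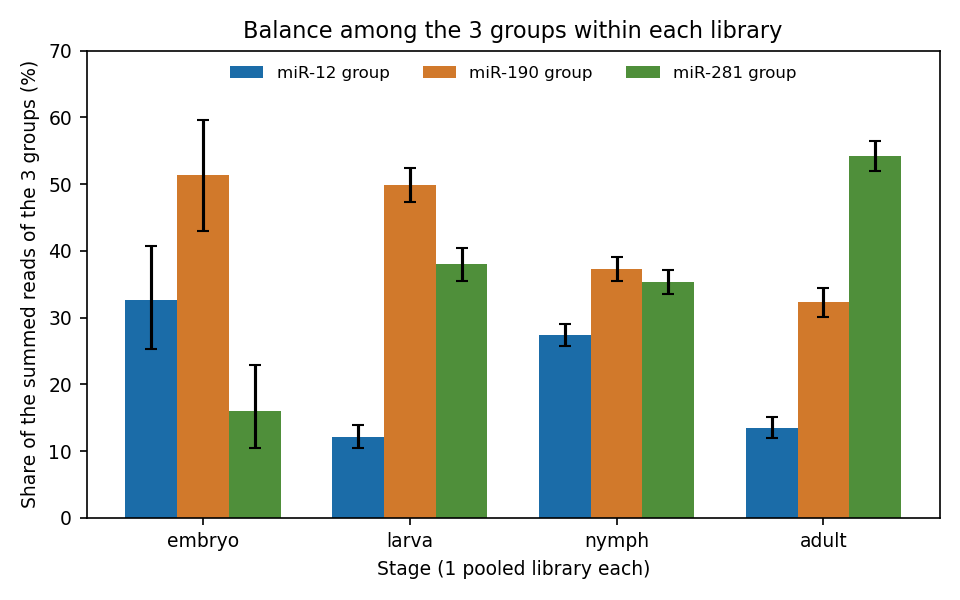
Share of the summed reads of the miR-12, miR-190 and miR-281 groups (%, vertical axis) held by each group in the embryo, larva, nymph and adult libraries, with 95% binomial intervals. miR-281 holds 54.3% in the adult and 16.0% in the embryo, and miR-12 holds more in the embryo and nymph, 32.7% and 27.4%, than in the larva and adult, 12.1% and 13.5%.

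The other 7 names were rare and came from the opposite arm or differed from the leading sequence at 2 or 3 bases. The 3p sequences are shown because they can be paired with the 5p arms above.
miR-12a-3p: aGTACTTAatgtgagactcatc
miR-190-3p: aCCAAGAAtcagacatatgc
miR-190a-3p: cCAAGAATcagacatatgc
miR-281-3p: tGTCATGGagttgctctctttc
miR-281: tGTCATGGagttgctctcttt
The name miR-281, which carries no arm suffix, is a 3p sequence here, whereas miR-12 and miR-190 without a suffix are 5p sequences. miR-190a-3p starts 1 base after miR-190-3p and so has another seed. A predicted duplex of miR-12-5p with miR-12a-3p held 18 pairs, and that of miR-281-5p with miR-281-3p held 17. Both left 2 bases overhanging at each 3′ end, the usual mark of Drosha and Dicer cuts. The predicted duplex of miR-190-5p with miR-190-3p held 18 pairs, with an overhang of 1 base on the 5p strand and 0 on the 3p strand as listed. Its 3p row is 20 nucleotides long and rests on 1 read. The later-starting miR-190a-3p, with 5 reads, was not paired, so the overhangs of miR-190 are left undecided.

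The 3p arm was a small fraction throughout. Over the 4 libraries the miR-12 3p arm had 2 reads beside 1262 of the 5p arm (0.158%, interval 0.0192 to 0.570), miR-190 had 6 beside 2496 (0.240%, 0.0881 to 0.521) and miR-281 had 16 beside 2614 (0.608%, 0.348 to 0.986). Of the 16 miR-281 3p reads, 14 were in the nymph, 1 in the larva and 1 in the adult. The 3p share of miR-281 was 0.0991% (0.00251 to 0.551) in the adult and 1.38% (0.755 to 2.30) in the nymph, with nearly equal 5p reads of 1008 and 1002, and these intervals do not overlap. The larva share of 0.172% (0.00436 to 0.955) overlaps both, and the embryo had 0 of 24 reads, with an interval of 0 to 14.25%. Over the 3 families 21 of 24 reads of the 3p arm were in the nymph, the library with the most listed reads and names (346, against 262 to 273 in the others), and the part of that depth in the 3p rows was not tested. A further 3p sequence, listed in the nymph as miR-46-3p with 1 read, lies wholly inside miR-281-3p from its 5′ end and has 20 nucleotides. It is kept apart here because of its number, and was named after its value was seen.

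Both remaining names carry base differences in the 5p arm outside the seed. miR-12b-5p had 3 reads in the nymph alone and differs from miR-12 by A9T, A11T and T12C, with positions counted from 1 at the 5′ end. miR-190a-5p had 1 read in the adult alone and differs from miR-190-5p by T16A and C17T. They made up 0.384% (0.0793 to 1.12) and 0.166% (0.00421 to 0.924) of the reads of their own sequence and the leading group in those libraries. Whether they come from other gene copies or from errors in reading was not tested.

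Few relatives of these families by genome cluster or tissue were listed. Of the Drosophila miR-12 cluster, miR-283 and miR-304 had no row in any library. Of 5 miRNAs linked to the gut in insects, miR-1174 and miR-1890 had no row, and miR-275, which acts in blood digestion in mosquitoes, had 1, 6, 8 and 3 reads from embryo to adult, too few for a call. The miR-1175 group, the one other member with enough reads, had 7, 28, 126 and 97 reads, or 28.2, 27.7, 100.1 and 221.3 listed RPM. It was 3.62-fold higher in the nymph than in the larva (2.39 to 5.66), and 4.50-fold (2.97 to 7.04) with the library totals, where miR-281 was not called. Its larva over embryo ratio was 0.981 (0.419 to 2.66) on the listed and 4.01 (1.71 to 10.9) on the library scale. Its adult over nymph ratio was 2.21 (1.68 to 2.90) on the listed scale and turned to 0.773 (0.587 to 1.02) on the library scale, and none of these 4 ratios was called. In adult over embryo it was called higher on both scales, at 7.85 (3.67 to 20.0) listed and 13.95 (6.52 to 35.6) library. Of all tested groups 27.8% and 29.2% were called higher there.

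Wider lists are given beside the shares of all tested groups. An ecdysone-linked list of 8 families known from insects, which includes miR-281, had groups of 5 families tested. In larva against embryo 4 of its 13 groups were higher and 8 lower, where 21.1% of all tested groups were higher and 44.7% lower. Its median log2 ratio was -2.03 against -1.02 over all groups. All 8 lower groups were names of the single family let-7, with ratios of 0.192 to 0.245, so the median is that of let-7. The groups of its other tested families had ratios above 1, from 2.06 for miR-8-3p to 11.4 for miR-34-5p. In nymph against larva 3 of 15 were higher and 0 lower, against 12.8% and 3.49% of all groups. In adult against nymph 4 of 15 were higher and 2 lower, against 10.5% each way. With the library totals these counts were 5 and 0, 4 and 0, and 0 and 3. The shares of all groups on that scale were 44.7% higher and 3.95% lower, 19.8% and 2.33%, and 0% and 45.3%.

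A list of 60 families conserved in arthropods includes all 3 described here. On the listed scale 14 of its 50 groups were higher in the larva than in the embryo and 15 lower, where all groups had 21.1% and 44.7%. The 15 include the 8 let-7 groups described above, as let-7 is also in this list. In the nymph against the larva 11 of 57 were higher and 3 lower, against 12.8% and 3.49%, and in the adult against the nymph 5 of 54 were higher and 9 lower, against 10.5% each way. The median log2 ratios of the list were 0.09, 0.59 and -0.30, against -1.02, 0.38 and 0.33 over all tested groups. With the library totals the counts were 31 and 3, 17 and 2, and 0 and 37, beside the shares of all groups on that scale given above. The medians of the list were then 2.125, 0.9 and -1.81, against 1.01, 0.69 and -1.18 over all tested groups. All tested groups thus include names outside this list, such as miR-122-5p and miR-451-5p, and the origin of their reads was not tested. Of 26 families known from plants, 0 had a row. As the miRNA reference was not stated, this does not show that plant miRNAs were absent.

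The stage patterns were set against those of 94 other groups with at least 30 reads and a row in every library, by the Euclidean distance between centred log2 levels over the 4 libraries, a measure that scaling does not change. Nearest to miR-281 were miR-317 (distance 0.305), miR-252-5p (0.846) and miR-34-5p (0.908), against a median of 4.20 over the 94. miR-317, which lies beside miR-34 and miR-277 in Drosophila, had 1184, 6246, 11610 and 30180 listed RPM from embryo to adult. Nearest to miR-190 were bantam (0.617), miR-7 (0.629) and miR-5735-3p (0.772), against a median of 2.70, and bantam, a growth promoter in Drosophila, had 584.1, 1482, 2708 and 2872 listed RPM. Nearest to miR-12 were miR-305c-5p (0.631), bantam (1.04) and miR-7 (1.16), against a median of 2.47. The miR-305c-5p group shared the low larva and high nymph of miR-12, with 257.8, 137.3, 490.2 and 481.3 listed RPM. Like miR-190 and miR-281, the miR-305c-5p and miR-252-5p groups had no variant listed in all 4 libraries. The 3 families were not each other's nearest: the distance between miR-12 and miR-190 was 1.24, rank 6 from either. That between miR-12 and miR-281 was 2.39, rank 43 from miR-12 and 19 from miR-281, and that between miR-190 and miR-281 was 1.75, rank 19 from miR-190 and 10 from miR-281. These distances rest on 4 libraries that all groups share, and say nothing of common control.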

How the data were processed

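Per the labels' protocols, total RNA was size-selected at 18 to 30 nucleotides on a 15% acrylamide gel, given adapters on both ends and amplified by PCR. Per the file headers, each known miRNA name comes with its sequence, its count of reads and a normalized value. The read counts deposited by the authors are whole numbers. The normalized values were deposited as RPM, reads per 1000000 of a library total, recovered here as count over value, the same in each row of a library. The aligner, miRNA reference and mismatch rule were not stated.

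Names were joined into sequence groups at 17 overlapping bases without mismatch. Ratios have exact conditional binomial (Clopper-Pearson) 95% intervals, levels exact Poisson intervals, and changes in a ratio between 2 miRNAs conditional odds ratio intervals (Python 3.11.15, SciPy 1.17.1). Calls were checked on simulated data, which cannot show how animals or libraries of a stage vary. Scaling factors came from edgeR 4.0.16 (TMM) and DESeq2 1.42.0 (median of ratios), and duplexes from RNAduplex 2.7.2 at 37 degrees. A row left out of a library counts as 0 in sums and intervals and as 3 reads in the value of a ratio. At these depths 3 reads are 12.1, 2.96, 2.38 and 6.84 listed RPM from embryo to adult.

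The families, lists and tests were chosen with earlier results of these data known. The text names all rows of the 3 numbers, the 3 groups nearest to each in stage pattern, names sharing a seed, and the measured members of the cluster and gut lists. Alternatives were other scalings, other read minimums, single variants and other joins.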

Additional observations from a re-analysis of the deposited data

How the results depend on the processing

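No paired analysis was possible because each stage has 1 library, and for the same reason no library could be left out. The 24 embryo reads of miR-281 and 49 of miR-12 limit the precision of every ratio to the embryo. Ratios of the adult to the embryo, which chose the families and are description only, kept direction and call under all 5 scalings. They ran from 2.89 to 5.14 for miR-12, 4.41 to 7.85 for miR-190 and 23.8 to 42.3 for miR-281. Direction and call also held for miR-281 in the larva over the embryo (5.93 to 24.2). The same was true of miR-12 in the nymph over the larva (2.94 to 4.20).

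The larva over embryo ratio of miR-12, 0.926 as reported, turned to 3.79 with the library totals, 1.49 with miR-1 left out of the totals, 2.41 by TMM and 2.84 by median of ratios, and that of miR-190, 2.42, passed the call at 9.91, 3.91, 6.30 and 7.43. The nymph over larva ratio of miR-190, 1.12, turned to 0.973 by TMM and 0.999 by median of ratios. The adult over nymph ratio of miR-190, 1.63, turned to 0.570 with the library totals and 0.944 by median of ratios. That of miR-281, 2.89, lost its call at 1.01 with the library totals, 1.85 by TMM and 1.67 by median of ratios, and that of miR-12, 0.923, was called lower at 0.323 with the library totals. The cause of these shifts was not tested. On the library scale the levels from embryo to adult were 8.22, 31.1, 130.9 and 42.2 RPM for miR-12, 12.9, 128.1, 178.0 and 101.4 for miR-190, and 4.03, 97.6, 168.6 and 170.3 for miR-281.

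With the leading variant alone and a missing row set to 3 reads, the larva over embryo ratio came to 62.2 for miR-190 and 0.0307 for miR-281. The nymph over larva ratio of miR-281 came to 268.6 and the adult over nymph ratio of miR-190 to 0.00814, and miR-190 had no adult over embryo value. These values are no bounds and follow from which variant was listed, as a missing row does not show absence. The number of groups called was 50 for larva over embryo but 31 with TMM, 18 for adult over nymph but 39 with the library totals, and, with names not joined, an alternative chosen after seeing the data, 75 in place of 50 for larva over embryo, 38 in place of 14 for nymph over larva, 41 in place of 18 for adult over nymph and 51 in place of 27 for adult over embryo. Read minimums of 10 or none, and summing all names of a number, changed no call of the 3 groups.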
